A study of Mus musculus with 42 samples.

Results

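Transcripts of 9 serum amyloid and acute-phase genes were followed in liver from pubertal mice: Saa1, Saa2, Saa3, Saa4, Lcn2, Hp, Orm1, Orm2, and Crp. They were found by gene name among the 54532 genes of the read count table, and all 9 were detected well enough in liver to be tested. The genes were selected on earlier results, including a lean of Saa1 and Saa4 toward higher levels on the high-fat diet at ZT 0, so that difference is described below without a test. Female C57BL/6NHsd mice, 3 weeks old at the start, were assigned to 1 of 2 purified diets for 3 weeks: AIN93G, with soybean oil at 16% of energy, or a high-fat diet (HFD), with soybean oil at 45%. They were group-housed under an equal light and dark cycle with lights on at ZT 0, had free access to food, and received ketamine and xylazine before exsanguination, in both diets alike. Poly(A) RNA labelled as liver was sequenced every 4 h from ZT 0 to ZT 24 (Zeitgeber time, in hours), with 3 libraries for each diet and time and 42 in all.

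Acute-phase proteins are secreted by hepatocytes in amounts that change with inflammation, injury, and infection. Interleukin-6 acts through STAT3, and interleukin-1 and tumor necrosis factor act through NF-kB and C/EBP factors, to switch their genes on. Serum amyloid A proteins travel on high-density lipoprotein. In mice, Saa1 and Saa2 are the inducible hepatic forms, Saa3 is made largely outside hepatocytes, and Saa4 is the constitutive form.

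The libraries held 14592481 to 21368409 counts, so that 1 count equalled 0.0468 to 0.0685 CPM (counts scaled by library size), the unit used below. Alb, which encodes albumin, was at 66434 to 111995 CPM in 32 libraries, taken as liver, and at 18.7 to 81.0 CPM in the other 10. Those 10 held Adipoq, the adipocyte hormone adiponectin, at 1455 to 2984 CPM, against 0 to 5.01 CPM in the liver libraries. They are called adipocyte-rich here and comprised all libraries labelled AIN93G ZT 16 and ZT 20 and 2 per diet labelled ZT 24. A clock transcript also went against time labels. Arntl (Bmal1), a core clock activator, was at 39.9 to 49.1 CPM in the 6 ZT 0 libraries and at 1.19 to 2.38 CPM in the 6 ZT 8 libraries. Of the 6 ZT 12 libraries, 3 were above 10 CPM (AIN93G replicates 2 and 3, at 43.3 and 46.9 CPM, and HFD replicate 3, at 38.4 CPM), and 3 were at 0.898 to 1.67 CPM. None of the 6 ZT 24 libraries was above 10 CPM, although ZT 24 lies 1 cycle after ZT 0. Values without ZT 12 are given for the members' diet test, their spread, and the correlations whose call changed. For the members' time and cosine tests they are given for Saa4, the only member then called. The light phase labels were split as well: of the ZT 12 libraries, AIN93G replicate 2 and HFD replicate 3 were labelled Light and the other 4 Dark, which went with high and low Arntl in 5 of 6 libraries, AIN93G replicate 3 excepted. All 6 ZT 24 libraries were labelled Dark. The labels name no cage. In 8 cases a leading number in the sample titles was shared by up to 3 libraries, 18 in all, each time within 1 diet and never within 1 group; what it marks is not given in the sources used here, and its part in the results was not tested. Values of p measure the spread between these mice.

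The 4 serum amyloid genes lie together on chromosome 7 (mm10, coordinates as deposited). Saa3 spans chr7:46711998-46715700, Saa4 chr7:46727998-46732603, and Saa1 chr7:46740497-46742980, all on the minus strand, and Saa2 spans chr7:46751790-46754313 on the plus strand. The bases before the RefSeq start of each gene (GRCm38.p6) are shown because Saa1 and Saa2 moved together across libraries while Saa4 moved with another gene. Capitals mark matches, on either strand, to the C/EBP motif TTGCNNAA. The Saa2 and Saa3 sequences were shortened by 43 and 24 bases to end before the gene as deposited.
Saa1, chr7:46742981-46743230, minus strand: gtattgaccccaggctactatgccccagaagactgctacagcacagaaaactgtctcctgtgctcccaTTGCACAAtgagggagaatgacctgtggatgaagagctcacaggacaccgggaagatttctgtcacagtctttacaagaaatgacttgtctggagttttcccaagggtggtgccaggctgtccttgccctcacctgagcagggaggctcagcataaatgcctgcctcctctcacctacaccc
Saa2, chr7:46751583-46751789, plus strand: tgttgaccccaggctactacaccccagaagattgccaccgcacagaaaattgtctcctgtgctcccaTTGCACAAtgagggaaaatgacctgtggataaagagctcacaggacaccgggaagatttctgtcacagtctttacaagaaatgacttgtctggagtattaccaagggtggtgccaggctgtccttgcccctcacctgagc
Saa3, chr7:46715701-46715926, minus strand: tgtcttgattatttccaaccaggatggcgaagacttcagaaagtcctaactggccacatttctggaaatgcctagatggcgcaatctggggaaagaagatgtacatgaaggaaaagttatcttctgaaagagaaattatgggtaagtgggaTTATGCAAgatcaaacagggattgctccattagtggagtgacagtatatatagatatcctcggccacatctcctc
Saa4, chr7:46732604-46732853, minus strand: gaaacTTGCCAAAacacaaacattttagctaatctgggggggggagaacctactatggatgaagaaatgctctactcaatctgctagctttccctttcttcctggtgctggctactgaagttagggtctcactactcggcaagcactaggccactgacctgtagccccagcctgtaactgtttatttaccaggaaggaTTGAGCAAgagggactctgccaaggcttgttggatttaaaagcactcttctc

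Within 250 bases before the start, Saa1 and Saa2 were identical in 238 of 251 aligned columns (94.8%). Saa1 and Saa4 were identical in 49.5% of columns, and Saa1 and Saa3 in 52.2%. The C/EBP motif was in 6 of the 7 members with a promoter sequence (Saa1, Saa2, Saa3, Saa4, Lcn2, and Orm2, not Crp) and in 9.56% of 32851 promoters of the same length. The NF-kB motif, GGG and TTCC separated by any 3 bases, and the STAT motif, TTC and GAA separated by any 3 bases, were, on either strand, in none of the 7, against 4.65% and 7.02% of all promoters. The Lcn2 stretch lies inside the gene as deposited, since RefSeq starts Lcn2 further in. A match is only a run of letters, and no factor was measured. Hp and Orm1 had no entry.

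Near-identical genes can share reads. Of the 100-base windows of the GENCODE M21 transcripts of Saa1, 8.96% also occurred in Saa2, and 6.95% of those of Orm1 occurred in Orm2. No such window was shared by Saa3 or Saa4 with another Saa gene, or by Orm1 or Orm2 with Orm3. How shared reads were counted is not given in the sources used here, so the split between Saa1 and Saa2, and between Orm1 and Orm2, is uncertain to that extent. Crp overlapped 1 other gene as deposited, Gm38051, whose mean count in liver was 4.19.

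Levels between genes were compared per length, as CPM per kilobase of the deposited gene length, over the 32 liver libraries. Hp, which encodes haptoglobin, the plasma scavenger of free hemoglobin, was highest, with a median of 1340 (867 to 2140). Orm1, an orosomucoid that carries drugs and lipids in plasma, followed with a median of 573 (308 to 956), then Crp, a pentraxin that is a weak reactant in mice, with 149 (93.6 to 204), and Saa4 with 105 (55.0 to 239). The ranges of Hp and Orm1 overlapped, as did those of Crp and Saa4, and that of Orm1 lay above that of Crp. The other 5 genes lay below all libraries of Saa4, and each overlapped its neighbor in order: Orm2 had a median of 9.83, Saa1 of 9.71, Lcn2 of 4.34, Saa2 of 4.17, and Saa3 of 1.77. The inducible Saa1 (up to 42.5) and Saa2 (up to 14.9) were below the constitutive Saa4 in these livers.

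**Figure D1:**
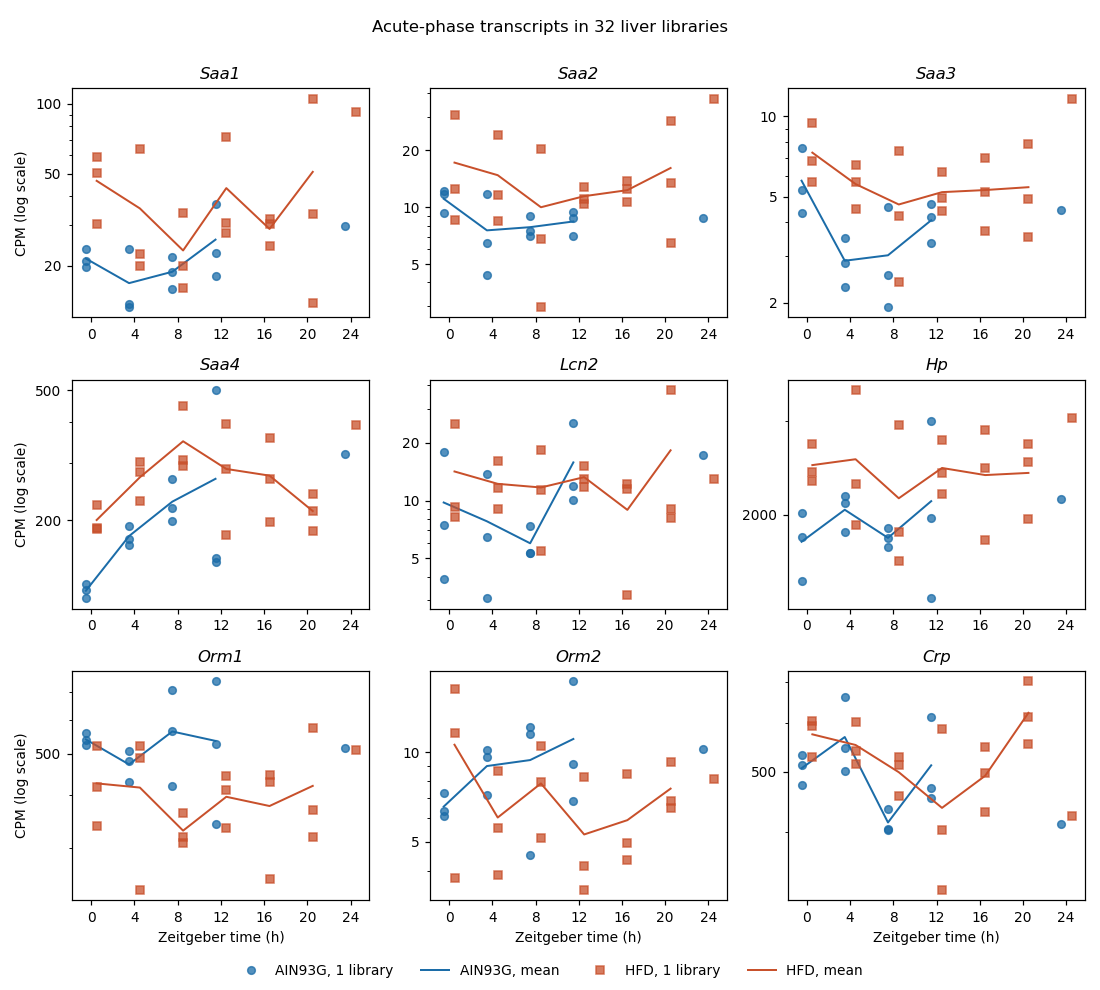
Level of each gene in each of the 32 liver libraries, in CPM on a log axis, against Zeitgeber time. Points are libraries (blue circles AIN93G, red squares HFD) and lines join the means of 3 libraries; Saa4 was lowest at ZT 0 on AIN93G (115 to 127 CPM) and the ZT 12 libraries were split (149 to 501 CPM).

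At ZT 0, the contrast used to choose the genes, Saa1 was at 19.7, 21.1, and 23.7 CPM in AIN93G-fed mice and at 59.2, 30.4, and 50.1 CPM in HFD-fed mice. Saa4 was at 127, 122, and 115 CPM in AIN93G-fed mice and at 222, 188, and 190 CPM in HFD-fed mice. Neither gene overlapped between diets, and the fitted log2 differences (HFD minus AIN93G) were 1.09 and 0.70. Just beside them in size, Orm2 was 0.67 higher and Saa2 0.59 higher with overlapping libraries. Hp was also higher without overlap, at 2317 to 2722 CPM against 1500 to 2018 CPM, and Orm1 was lower without overlap, at 338 to 522 CPM against 523 to 559 CPM. These 4 of 9 genes stand beside 12.9% of the 12023 genes tested that did not overlap at ZT 0, and 0% of those genes passed the adjusted threshold with edgeR (480 at an unadjusted p under 0.05, and 13 with DESeq2). The summed level of 9 macrophage markers was 610 to 1180 CPM on the HFD and 468 to 578 CPM on AIN93G in the same libraries. Its part in the differences was not tested.

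Diet was tested apart from ZT 0, the time point named in the choice, as the mean difference over ZT 4, 8, and 12. Since the genes were chosen with earlier results of these data known, this test is not fully independent of the choice. No member passed the adjusted threshold with edgeR or DESeq2, and 5 of 9 were at an unadjusted p under 0.05: Saa1, Saa3, and Saa4 with higher values on the HFD, and Orm1 and Orm2 with lower values. Among all 12023 genes, 1 passed (0.00832%) and 690 (5.74%) were at an unadjusted p under 0.05. Of the 9 members, 6 had a higher fitted value on the HFD, with a median log2 difference of 0.42 over the members and -0.00178 over all genes. Without ZT 12, Saa1 and Orm2 were no longer at an unadjusted p under 0.05 (edgeR, 0.0849 and 0.153). Saa3, Saa4, and Orm1 alone still were (0.00822, 0.000297, and 0.018).

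Saa3 differed with the smallest p. At ZT 4 it was at 2.29, 2.82, and 3.50 CPM on AIN93G and at 4.49, 5.68, and 6.54 CPM on the HFD, without overlap. At ZT 8 it was at 1.92, 4.56, and 2.55 CPM on AIN93G and at 4.22, 7.40, and 2.40 CPM on the HFD, and at ZT 12 at 3.36, 4.68, and 4.19 CPM and at 6.21, 4.43, and 4.95 CPM, both with overlap. The mean log2 difference was 0.64 ± 0.20 (SE, 9 libraries per diet; 95% interval 0.226 to 1.06; edgeR adjusted p = 0.571). Over all liver libraries Saa3 rested on 34 to 179 counts.

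Saa1 at ZT 4 was at 23.6, 13.7, and 13.3 CPM on AIN93G and at 19.9, 22.6, and 63.7 CPM on the HFD. At ZT 8 it was at 15.9, 21.9, and 18.8 CPM and at 20.0, 33.8, and 16.1 CPM, and at ZT 12 at 37.1, 18.1, and 22.7 CPM and at 27.8, 71.7, and 30.5 CPM, in the same order of diets. The diets overlapped at all 3 times, and 1 HFD library at ZT 4 and 1 at ZT 12 were far above the rest. The mean log2 difference was 0.68 ± 0.31 (95% interval 0.0522 to 1.31; edgeR adjusted p = 0.836). It was past the threshold only when no filter on low counts was used (0.684, adjusted p = 0.0346). Saa2 differed by 0.57 ± 0.31 (edgeR adjusted p = 0.913), with an interval of -0.0779 to 1.21.

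Saa4 at ZT 4 was at 168, 176, and 192 CPM on AIN93G and at 229, 281, and 302 CPM on the HFD. At ZT 8 it was at 198, 268, and 218 CPM on AIN93G and at 449, 305, and 294 CPM on the HFD. The diets did not overlap at either time. At ZT 12 they did, at 501, 149, and 153 CPM on AIN93G and 395, 286, and 180 CPM on the HFD. The mean log2 difference was 0.42 ± 0.20 (95% interval 0.00351 to 0.84; edgeR adjusted p = 0.859). It was 0.594 without ZT 12 (adjusted p = 0.148) and 0.736 without AIN93G ZT 12 replicate 1, where it passed (adjusted p = 0.0212).

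The orosomucoids had lower values on the HFD. Orm1 at ZT 8 was at 420, 565, and 708 CPM on AIN93G and at 318, 362, and 308 CPM on the HFD, without overlap. At ZT 4 it was at 481, 428, and 507 CPM and at 239, 489, and 521 CPM, and at ZT 12 at 341, 527, and 741 CPM and at 334, 412, and 442 CPM, both with overlap. The mean log2 difference was -0.47 ± 0.16 (95% interval -0.805 to -0.133; edgeR adjusted p = 0.662). Orm2, the closely related gene, was at 4.53 to 17.3 CPM on AIN93G and at 3.45 to 10.5 CPM on the HFD over these times, with a difference of -0.64 ± 0.26 (95% interval -1.17 to -0.115; edgeR adjusted p = 0.764). At ZT 0 Orm2 pointed the other way, as given above.

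The intervals of the remaining members included 0. Lcn2, a lipocalin that withholds iron from bacteria by binding siderophores, differed by 0.43 ± 0.38 (interval -0.348 to 1.21), and Hp by 0.25 ± 0.15 (interval -0.0716 to 0.563). The interval of Crp was the narrowest, -0.192 to 0.18 around -0.00589, and its sign depended on which libraries were used. Without ZT 12, the differences were 0.656 for Saa1, 0.619 for Saa2, 0.774 for Saa3, 0.784 for Lcn2, 0.265 for Hp, -0.503 for Orm1, -0.441 for Orm2, and 0.0973 for Crp, and none passed (edgeR, adjusted p 0.351 to 0.73). No member had a diet difference that varied with time between ZT 4, 8, and 12 at the adjusted threshold (edgeR, lowest adjusted p = 0.637, for Crp; 0 of 9 at an unadjusted p under 0.05; DESeq2 was not run for it).

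**Figure D2:**
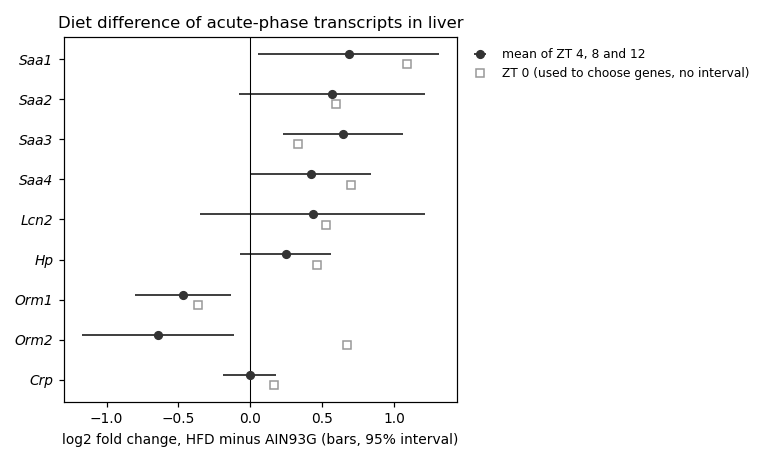
Fitted log2 difference of each gene in liver, HFD minus AIN93G. Black circles with bars are the mean over ZT 4, 8, and 12 with its 95% interval, and open squares are ZT 0, the time used to choose the genes; the interval lay above 0 for Saa1, Saa3, and Saa4 and below 0 for Orm1 and Orm2.

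Taken 1 time point at a time, no member passed with edgeR or DESeq2 at ZT 4, ZT 8, or ZT 12, and 1 of 9 at each time was at an unadjusted p under 0.05 (Saa3, Orm1, and Orm2, in that order). Over all genes, 0% passed at ZT 4 (302 at an unadjusted p under 0.05, and 0 with DESeq2), 0.0166% at ZT 8 (1411, or 11.7%, at an unadjusted p under 0.05, and 30 with DESeq2), and 0% at ZT 12 (875 at an unadjusted p under 0.05, and 3 with DESeq2). Members whose diets did not overlap numbered 2 of 9 at ZT 4 (Saa3 and Saa4, both higher on the HFD), beside 7.98% of all genes. At ZT 8 there were 3 of 9 (Saa4 and Crp higher, Orm1 lower), beside 13.1%, and at ZT 12 there was 1 of 9 (Saa2 higher), beside 9.65%. Saa4 was the member that did not overlap at the most times.

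Other genes of the acute-phase response were taken from lists. Of 22 other positive acute-phase genes, 20 were tested, and none passed for diet over ZT 4, 8, and 12 with edgeR or DESeq2. At an unadjusted p under 0.05 were 4 of them: the fibrinogen chains Fga (-0.38 ± 0.12), Fgb (-0.28 ± 0.11), and Fgg (-0.26 ± 0.12), which form the clot protein, and Steap4 (0.28 ± 0.10), a metalloreductase. The median log2 difference of the 20 was -0.0727, against 0.42 for the 9 members. None of 10 negative acute-phase genes, whose products fall in inflammation, passed or was at an unadjusted p under 0.05. The same held for 20 tested genes of IL-6 and IL-1 signaling. Of 5 tested partners and receptors, none passed, and Cd163, the macrophage receptor for haptoglobin bound to hemoglobin, was at 0.48 ± 0.18 (edgeR adjusted p = 0.755). DESeq2 called none in these lists. Without ZT 12 edgeR called none in them either.

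Change over time was tested within each diet over the groups that were liver throughout, ZT 0 to ZT 12 on AIN93G and ZT 0 to ZT 20 on the HFD. No member passed in either diet with edgeR or DESeq2, and at an unadjusted p under 0.05 were 2 of 9 on AIN93G (Saa3 and Saa4) and 0 of 9 on the HFD. Among all genes 0.823% passed on AIN93G and 5.27% on the HFD, and 10.7% and 25.2% were at an unadjusted p under 0.05. Without ZT 12 these counts of genes went from 99 to 437 on AIN93G and from 634 to 1047 on the HFD.

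On AIN93G, Saa4 had its lowest values at the start of the light phase. As given above, it was there at 115 to 127 CPM at ZT 0, 168 to 192 CPM at ZT 4, and 198 to 268 CPM at ZT 8, with no overlap between these times. On the HFD it was at 188 to 222 CPM at ZT 0, 229 to 302 CPM at ZT 4, and 294 to 449 CPM at ZT 8, and then at 197, 267, and 358 CPM at ZT 16 and 185, 241, and 214 CPM at ZT 20, with 1 library at ZT 12 and 1 at ZT 20 below all ZT 0 libraries. Over all times, the adjusted p of edgeR was 0.271 on AIN93G and 0.372 on the HFD. Without ZT 12 it passed in both diets (0.0147 on AIN93G and 0.0275 on the HFD), and without ZT 0 in neither (0.929 and 0.654). With no filter on low counts, Saa4 passed in both diets (0.000258 and 0.0492), Lcn2 on AIN93G (0.0256), and Saa1 on the HFD (0.0204). Since Saa1 and Saa4 were chosen on their ZT 0 values, which these tests use again, their passes are no independent evidence of a change over time.

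At ZT 12, libraries of 1 diet lay far apart in Saa4, and each is given beside its Arntl level. On AIN93G, replicate 1 had Saa4 at 501 CPM and Arntl at 1.03 CPM, replicate 2 had 149 and 43.3 CPM, and replicate 3 had 153 and 46.9 CPM. On the HFD, replicate 1 had 395 and 1.67 CPM, replicate 2 had 286 and 0.898 CPM, and replicate 3 had 180 and 38.4 CPM. The 3 libraries lowest in Saa4 were thus those with high Arntl, at 38.4 to 46.9 CPM, close to its ZT 0 range of 39.9 to 49.1 CPM. At ZT 0 Saa4 was at 115 to 222 CPM. The others lay within or above the ZT 8 range of Saa4 (198 to 449 CPM). Hp was also low in the 3 libraries with high Arntl, at 1392 to 2190 CPM, and at 2398 to 3003 CPM in the others. So was Lcn2, at 10.03 to 11.93 CPM and at 12.88 to 25.51 CPM. Orm1, Orm2, and Crp went the other way, without overlap. In the libraries with high Arntl they were at 442 to 741, 8.27 to 17.35, and 470 to 613 CPM. In the others they were at 334 to 412, 3.45 to 6.83, and 322 to 454 CPM. Saa1, Saa2, and Saa3 overlapped. Whether the time labels of these libraries are right was not tested.

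**Figure D3:**
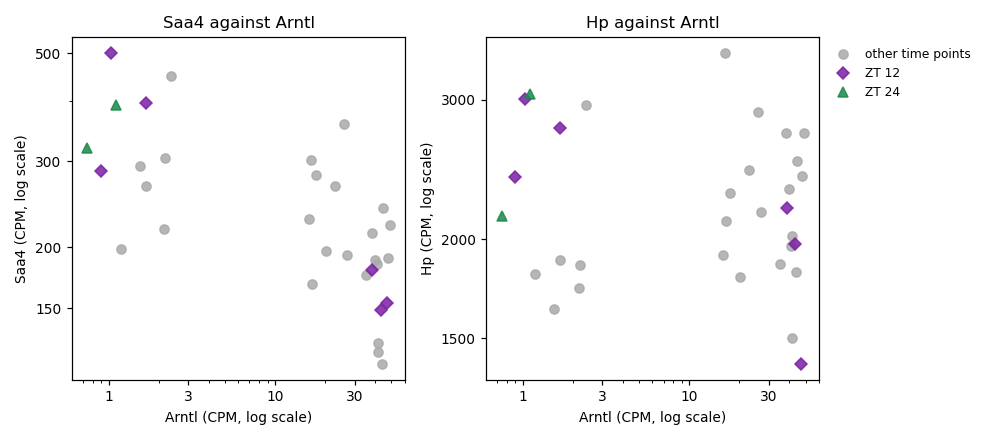
Level of Saa4 (left) and Hp (right) against that of Arntl in each of the 32 liver libraries, in CPM on log axes. Purple diamonds are ZT 12, green triangles ZT 24, and grey circles the other times; the ZT 12 libraries fall into 3 with low Arntl and Saa4 at 286 to 501 CPM and 3 with high Arntl and Saa4 at 149 to 180 CPM.

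A 24 h cosine was fitted to the 18 HFD libraries from ZT 0 to ZT 20, those of ZT 0 included. Saa4 had an amplitude of 0.396 on the log2 scale with a fitted peak at 10.1 h, and did not pass with edgeR (adjusted p = 0.0552), where 8.52% of all genes passed. The fit reuses the ZT 0 values on which Saa4 was chosen, and without ZT 0 the adjusted p was 0.276, so it is no independent evidence of a rhythm. With ZT 0 it passed with DESeq2 (adjusted p = 0.0156), with no filter on low counts (0.016), without ZT 12 (0.0177), without HFD ZT 12 replicate 3 (0.00437), and without HFD ZT 16 replicate 3 (0.0454). Leaving out 1 library gave values up to 0.124. The next lowest was Crp, with an amplitude of 0.183 and a fitted peak at 22.7 h (edgeR adjusted p = 0.204). Over time on the HFD, Crp passed without HFD ZT 12 replicate 3 (adjusted p = 0.0372). For the other 7 members the adjusted p was at least 0.49 by edgeR.

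Some genes of the other lists passed over time on the HFD. With edgeR these were 2 of 20 other positive genes, beside 5.27% of all genes: Hamp, the iron hormone hepcidin (adjusted p = 0.0331), and Lbp, the lipopolysaccharide binding protein (0.036). Of 20 signaling genes 1 passed, the kinase Jak2 (0.0485), a share near that of all genes. The cosine called 3 of the 20 positive genes, beside 8.52% of all genes: Hamp with a fitted peak at 13.9 h and an amplitude of 0.786, the metallothionein Mt1 at 8.43 h with 1.59, and Lbp at 1.68 h with 0.567 (edgeR adjusted p = 0.00349, 0.00488, and 0.0117). It also called 1 of 10 negative genes, a share near that of all genes: Serpina6, which encodes corticosteroid binding globulin (10.6 h, amplitude 0.682, edgeR adjusted p = 0.00771). Of 5 tested partners and receptors it called 1, Scarb1, a receptor for high-density lipoprotein (2.03 h, 0.314, 0.0285). Without ZT 12, Jak2 (0.113) no longer passed over time and Scarb1 (0.0903) no longer with the cosine, while Mt1 (0.0229) and Serpina6 (0.0274) passed over time and Fga (0.0309) and Fgb (0.0441) with the cosine, where 8.68% and 8.6% of all genes passed. Hamp kept a fitted peak at 13.7 h (0.00647). Without ZT 0, Hamp (0.0422) and Mt1 (0.0284) passed with the cosine, and Lbp, Serpina6, and Scarb1 did not (0.0729, 0.0842, and 0.117). With DESeq2, where 13.8% of all genes passed over time and 14.1% with the cosine, 4 positive genes were called over time (C3, Hamp, Mt1, and Lbp) and 7 with the cosine, with Itih3, Serpina3m, and Fga added. Of the other lists it called, over time, Serpina6 (1 of 10), Jak2 (1 of 20), and Lrp1 and Scarb1 (2 of 5). With the cosine it called Serpina6 and Rbp4 (2 of 10), Cebpb (1 of 20), and Lrp1 and Scarb1 (2 of 5). On AIN93G none of these lists had a gene that passed with edgeR, and Cebpa alone was called by DESeq2 and, without ZT 12, by edgeR.

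Mice of 1 group differed widely in most members. The SD within groups over the 30 libraries of the liver groups was 0.80 on the log2 scale for Lcn2, 0.68 for Saa1, 0.66 for Saa2, 0.53 for Orm2, and 0.46 for Saa4, against a median of 0.24 over all 12023 genes. Lcn2 lay at percentile 98.4 of all genes, Saa1 at 97.4, Saa2 at 97.1, Orm2 at 94.6, and Saa4 at 92.0. Orm1 (0.38), Saa3 (0.36), and Hp (0.34) were at percentiles 80.1 to 85.1, and Crp was below the median at 0.185, percentile 25.4. The part that counting error alone would give was 0.16 for Saa3 and less for every other member. Without ZT 12 the SD of Saa4 was 0.248, percentile 57.5, where the median of all genes was 0.23; Saa1, Saa2, Lcn2, and Orm2 stayed at percentiles 95.7 to 98.9, Saa3, Orm1, and Hp were at 73.4 to 89.3, and Crp at 8.39. Saa1 was highest in HFD ZT 20 replicate 3, at 105 CPM, where the other 2 libraries of the group were at 13.8 and 33.7 CPM. Lcn2 was also highest there among liver libraries, at 37.8 CPM against 8.095 and 8.998 CPM.

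To ask which members varied together across mice, deviations of log2(CPM + 1) from the group mean were correlated in all 36 pairs over these 30 libraries. For this, CPM were scaled by TMM factors as well as library size. With 100000 permutations within groups (two-sided) and adjustment over the 36 pairs, 6 pairs passed by Pearson's r, all positive, and 5 by Spearman's rho. With library size alone in place of TMM factors, 5 pairs passed by r. The share of passing pairs among all genes was not computed, so the 6 of 36 cannot be read as particular to the members. By r among all genes tested, Lcn2 ranked 26 for Saa1, 71 for Hp, and 1027 for Saa4. Saa4 and Hp had r = 0.807 and rho = 0.771 (permutation p = 0.00021, adjusted p = 0.00432, and 0.0099 for rho). Saa1 and Saa2 had r = 0.758 and rho = 0.677 (permutation, adjusted p = 0.00432 and 0.0129), a pair that shares windows of sequence and could share reads. Orm1 and Orm2, likewise a pair with shared windows, had r = 0.678 and rho = 0.691 (permutation, adjusted p = 0.00585 and 0.0129).

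Lcn2 was tied to both sides. It had r = 0.675 and rho = 0.704 with Hp (permutation, adjusted p = 0.00432 and 0.0099), r = 0.613 and rho = 0.59 with Saa1 (0.0151 and 0.0178), and r = 0.462 and rho = 0.435 with Saa4 (0.042 and 0.138), the last not past the threshold by rank. Without the 2 libraries farthest from the median of the first gene, r was 0.793 for Saa4 and Hp, 0.664 for Saa1 and Saa2, 0.668 for Orm1 and Orm2, 0.684 for Lcn2 and Hp, 0.488 for Saa1 and Lcn2, and 0.378 for Saa4 and Lcn2. Saa1 and Saa4, neighbors on the chromosome, had r = 0.333 and rho = 0.387 (permutation, adjusted p = 0.285 and 0.185; r = 0.377 without 2 libraries). Hp and Orm1 had r = -0.0188 and rho = -0.00289 (permutation, adjusted p = 0.973 and 0.991; r = 0.145 without 2 libraries).

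Without ZT 12, 4 pairs passed by Pearson's r and 8 by Spearman's rho. By r, Saa4 with Hp, Saa1 with Saa2, and Lcn2 with Hp were among them (r = 0.81, 0.858, and 0.693; permutation, adjusted p = 0.0173, 0.00072, and 0.0106), and Saa1 with Orm2 passed in place of the rest (r = 0.566, adjusted p = 0.0115). Orm1 with Orm2 then had r = 0.641 (adjusted p = 0.0508), Saa1 with Lcn2 0.594 (0.0697), and Saa4 with Lcn2 0.455 (0.18). By rho, Orm1 with Orm2 still passed (rho = 0.662; permutation, adjusted p = 0.0401), as did Saa1 with Saa2 (0.851), Saa4 with Hp (0.699), and Lcn2 with Hp (0.705), and Saa1 with Lcn2 did not (0.55; permutation, adjusted p = 0.0818). The pairs that did not pass by rho with ZT 12 and did without it were Saa1 with Orm1 (0.637), Saa1 with Orm2 (0.696), Saa2 with Orm2 (0.607), and Lcn2 with Crp (0.671), at an adjusted permutation p of 0.0401 or, for Saa1 with Orm2, 0.0254. The sign between the orosomucoids and Hp or Saa4 changed: without ZT 12, r was 0.346 for Hp and Orm1, 0.185 for Hp and Orm2, 0.242 for Saa4 and Orm1, and 0.0775 for Saa4 and Orm2 (permutation, adjusted p at least 0.332).

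**Figure D4:**
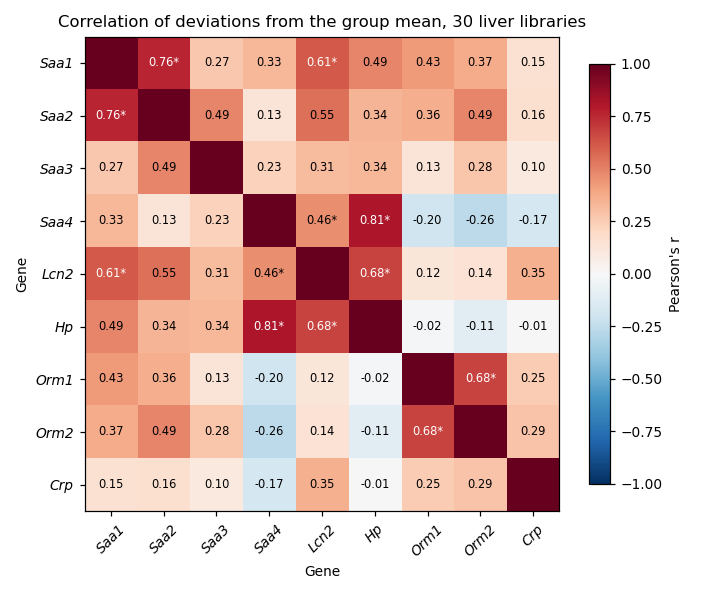
Pearson's r between members over the 30 libraries of the liver groups, after the group mean was taken from log2(CPM + 1), with CPM scaled by TMM factors. Colors and figures give r, and a star marks the 6 pairs with a permutation p under 0.05 after adjustment over 36 pairs; Saa4 with Hp (0.81) was highest, and the orosomucoids with Hp or Saa4 were at -0.26 to -0.0188 here and at 0.0775 to 0.346 without ZT 12.

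Among all genes tested, those nearest to each of 3 members were ranked by the same r, over the same 30 libraries and as a description only. For Saa1 the nearest gene was Saa2, and the nearest that are no members were Tmem143 (0.743), Dand5 (0.703), Lilr4b (0.688), Ldhd (0.665), and Dusp28 (0.66). For Hp they were Pnpla2 (0.838), Lrg1 (0.827), Lims2 (0.812), Il1r1 (0.806), and Atp6v1e1 (0.805). Pnpla2 is the triglyceride lipase of adipocytes and other cells and is on the adipocyte marker list, Lrg1 is a plasma acute-phase glycoprotein, and Il1r1 is the receptor of interleukin-1. For Saa4, examined after its values were seen, they were Gne (0.914), Cabyr (0.901), Efhd2 (0.9), Snx10 (0.895), and Fbxo31 (0.893). Gne makes the precursor of sialic acid. Hp ranked 33 for Saa4, and Saa4 ranked 4 for Hp. Without ZT 12, r to Saa4 was 0.7 for Gne, 0.804 for Cabyr and for Snx10, 0.543 for Efhd2, and 0.71 for Fbxo31, and Hp ranked 3. For Hp it was 0.704 to 0.813 over its 5 genes, and for Saa1 0.651 to 0.784. The neutrophil markers were nearly absent from liver, with a summed level of 0.229 to 4.26 CPM over 11 genes and none with a median above 1 CPM. Macrophage markers summed to 323 to 1180 CPM over 9 genes, and adipocyte markers to 742 to 2640 CPM, with 5 of 10 genes above 1 CPM. Their part in these correlations was not tested.

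At ZT 24, 1 library per diet was liver. On the HFD it held Saa1 at 92.8 CPM, Saa2 at 37.4 CPM, and Saa3 at 11.7 CPM, and for Saa2 and Saa3 these were the highest values of all liver libraries. Saa4 was there at 392 CPM. On AIN93G it held Saa1 at 29.6 CPM, Saa2 at 8.77 CPM, Saa3 at 4.47 CPM, and Saa4 at 320 CPM. Both Saa4 values were above all 6 ZT 0 libraries, and both libraries had low Arntl (0.745 and 1.11 CPM). With 1 library each there is no replicate check.

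In the 10 adipocyte-rich libraries, 4 members were at or near 0 and the others were present to different degrees. Saa2 had at most 1 count, Crp at most 4, and Saa1 and Saa4 at most 5. Hp was at 396 to 1566 CPM (median 953) and Orm1 at 108 to 408 CPM (median 193), against liver medians of 2153 and 444 CPM. Orm2 was at 0.745 to 5.66 CPM and Saa3 at 0.242 to 9.92 CPM, down to 13 and 4 counts in their lowest libraries. Lcn2 was at 4.63 to 67.8 CPM with a median of 27.4 CPM, above the liver median of 11.4 CPM, with overlapping ranges. In bulk tissue, a different number of cells of a type and a different level per cell cannot be told apart. In these libraries adipocyte markers summed to 24900 to 42200 CPM, fibroblast markers to 4280 to 10600 CPM, mammary epithelium markers to 67.2 to 1110 CPM, lymphocyte markers to 55.1 to 1410 CPM, and hepatocyte markers to 534 to 1350 CPM. Neutrophil markers summed to 5.62 to 129 CPM, with 1 of 11 genes above a median of 1 CPM and Ly6g at 0 in all 10. Their part in the level of Lcn2 was not tested.

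**Figure D5:**
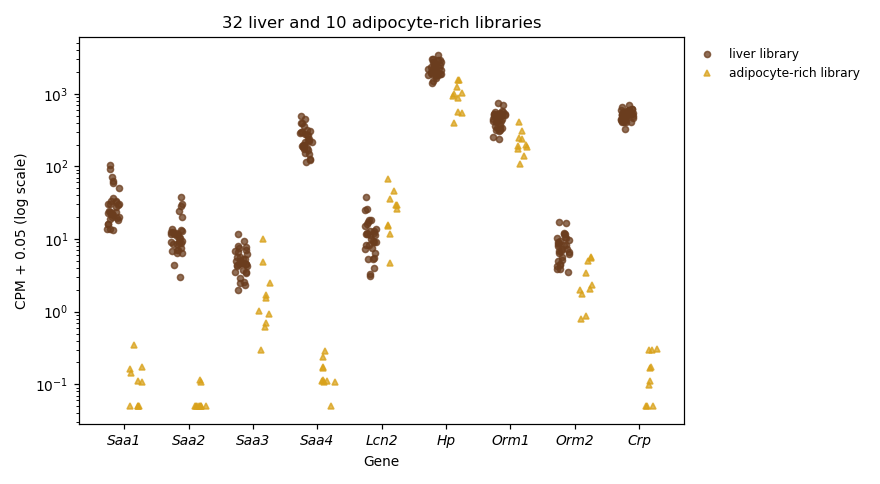
Level of each gene in the 32 liver libraries (brown circles) and the 10 adipocyte-rich libraries (yellow triangles), as CPM + 0.05 on a log axis, 1 point per library. Saa1, Saa2, Saa4, and Crp were near 0 in the adipocyte-rich libraries, while Hp, Orm1, Orm2, Saa3, and Lcn2 were present in both kinds.

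The labelled diet comparison at ZT 16 and ZT 20 set HFD liver against adipocyte-rich AIN93G libraries, so diet and tissue cannot be told apart. At ZT 16, 8 of 9 members were called higher under the HFD label by edgeR, where 55.7% of all genes were called, and at ZT 20, 7 of 9, where 59.3% were called. Saa1, Saa2, Saa4, and Crp met the count minimum through the HFD libraries alone and so had to differ. When each library had to hold at least 25 counts, 3 of 4 members tested at ZT 16 and 2 of 3 at ZT 20 were called, beside 50.2% and 54.5% of all genes. Against 3 counts per library, Saa4 was at least 1470-fold, Crp at least 2640-fold, Saa1 at least 155-fold, and Saa2 at least 65.9-fold higher in the HFD libraries at ZT 16. At ZT 20 the bounds were 280-fold for Saa1 and 88.6-fold for Saa2, and Saa4 was at 213 CPM against 0.117 CPM. Hp differed by 2.15 ± 0.45 at ZT 16 and 1.73 ± 0.27 at ZT 20 on the log2 scale (edgeR adjusted p = 0.0055 and 0.000666), and Orm1 by 1.795 ± 0.27 and 1.25 ± 0.36 (0.00123 and 0.0165). Lcn2 was called at neither time, with -0.68 ± 0.54 and 0.56 ± 0.84 (edgeR adjusted p = 0.319 and 0.593), and Saa3 was called at ZT 16 alone (0.0355, and 0.373 at ZT 20). These values depended on the scaling across tissues. The TMM factors spanned 0.722 to 1.41 at ZT 16, and without them the median over the genes tested moved from -0.0267 to -0.918 at ZT 16 and from -0.0422 to -0.71 at ZT 20. Lcn2 was then at -1.57 at ZT 16, called lower (edgeR adjusted p = 0.0306), and at -0.168 at ZT 20, where its sign turned (0.862). Hp was at 1.26 and 1.05 (0.028 and 0.00677) and Orm1 at 0.912 and 0.578 (0.0153 and 0.138). Saa3 at ZT 16 (0.977, adjusted p = 0.171) and Orm2 at both times (0.145 and 0.0656) were no longer called by edgeR. Counting both directions, 7 of 9 members were then called at ZT 16 and 5 of 9 at ZT 20, beside 76% and 72% of all genes.

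Within the adipocyte-rich AIN93G libraries, ZT 20 was compared with ZT 16. Of the 5 members with enough counts (Saa3, Lcn2, Hp, Orm1, and Orm2), none passed with edgeR or DESeq2, none was at an unadjusted p under 0.05, and 0% of all genes passed with edgeR (1387 at an unadjusted p under 0.05, and 156 with DESeq2). Orm1 was at 171, 190, and 237 CPM at ZT 16 and at 408, 186, and 248 CPM at ZT 20 (log2 difference 0.67 ± 0.33, edgeR adjusted p = 0.529). Saa3 was at 0.872, 4.74, and 2.43 CPM and at 9.92, 0.573, and 0.243 CPM, a spread within ZT 20 larger than any difference between the times.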

How the data were processed

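RNA was sequenced for the study by a company from samples with an RNA Quality Number at or above a set minimum. Per the labels, the processing notes name mm10, fastp, STAR, HTSeq 0.6.1, DESeq, and STAR-Fusion. The authors deposited raw read counts per gene without normalization. The strand setting is not given in the sources used here. Gene lengths were taken from the same table.

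Here, groups whose 3 libraries all exceeded 10000 CPM of Alb (30 libraries, 10 groups) were fitted together with R 4.3.3 and edgeR 4.0.16 (quasi-likelihood, TMM, mean count of at least 25, Benjamini-Hochberg adjusted p under 0.05). Pairs of groups and the 24 h cosine had fits of their own. DESeq2 1.42.0 was the alternative test. Quoted CPM use library size alone, while the spread within groups, the correlations, and the nearest genes used CPM with TMM factors. The fits were also run on simulated counts, a check whose outcome is not given here. Replicates differed beyond sampling noise in all 42 pairs (lowest chi-square per degree of freedom, 17.8).

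The members and the gene lists were chosen with earlier results of these data known. Named genes are the members, genes of the lists that passed, and the 5 nearest to Saa1 and Hp; genes at an unadjusted p under 0.05, Arntl and its limit of 10 CPM, Alb, Adipoq, and those nearest to Saa4 were chosen after their values were seen. Alternatives were another scaling, other filters, fewer libraries or times, and leaving out each library; the cosine, list genes, spread, and nearest genes without ZT 12, the cosine without ZT 0, and single values of the labelled diet comparison under other settings, were added after values were seen.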

Additional observations from a re-analysis of the deposited data

How the results depend on the processing

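No paired analysis was possible because the number of a library is only its place in accession order, and no source says what the leading number shared by some sample titles marks. Of 324 alternative log2 differences of single members over ZT 4, 8, and 12, 314 kept direction and side of the threshold, 2 came to pass (Saa1 without a filter, Saa4 without AIN93G ZT 12 replicate 1), and 8 were reversed, all of Crp, at 0.0973 without ZT 12 and at 0.00165 to 0.0485 in 7 cases with 1 library left out, over all of which Crp ranged from -0.0859 to 0.0485. The size of the differences moved more. With 1 library left out they ranged from 0.44 to 0.828 for Saa1, 0.242 to 0.742 for Saa2, 0.495 to 0.766 for Saa3, and 0.314 to 0.736 for Saa4. Lcn2 ranged from 0.253 to 0.689, Hp from 0.131 to 0.388, Orm1 from -0.536 to -0.374, and Orm2 from -0.787 to -0.494.

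Counts of genes called moved more, and the cause was not tested. With DESeq2 they were 14 for diet over ZT 4, 8, and 12 (1 with edgeR), 30 at ZT 8, 3 at ZT 12, 276 for time on AIN93G, 1658 for time on the HFD, 1693 for the cosine, and 156 for ZT 20 against ZT 16. Without a filter they were 99 for diet over the 3 times, 19 at ZT 4, 183 at ZT 8, 78 at ZT 12, 872 and 1738 for time on AIN93G and the HFD, and 2 for ZT 20 against ZT 16. Library size alone gave 2 for diet over the 3 times. At least 25 counts in every library gave 17 for time on AIN93G; the labelled diet comparisons then called 3 of 4 and 2 of 3 members, since the others, with Saa3 at both times and Orm2 at ZT 20 among them, were no longer tested. Fits of only the times or the diet compared gave 0 for diet over the 3 times and at ZT 8, 0 for time on AIN93G, and 325 for time on the HFD. Time gave 6 and 232 without ZT 0, where the cosine gave 392, and 437 and 1047 without ZT 12.

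Leaving out 1 library gave 0 to 57 for diet over the 3 times and 0 to 107 at ZT 12 (both highest without AIN93G ZT 12 replicate 1), 0 to 30 at ZT 8 (30 without HFD ZT 8 replicate 2, 0 without AIN93G ZT 8 replicate 2 or HFD ZT 8 replicate 1), 12 to 282 for time on AIN93G (12 without AIN93G ZT 8 replicate 2, 282 without AIN93G ZT 12 replicate 1), 330 to 1176 for time on the HFD (330 without HFD ZT 8 replicate 3, 1176 without HFD ZT 12 replicate 3), 672 to 1710 for the cosine (672 without HFD ZT 12 replicate 2, 1710 without HFD ZT 12 replicate 3), and 4 to 10 pairs for the correlations (4 without AIN93G ZT 12 replicate 1 or HFD ZT 20 replicate 3, 10 without HFD ZT 8 replicate 2). Where a group was left with 2 libraries, the fit took its spread from all groups. In 254 of 269 alternatives the number of members called stayed within 1.5 times of the reported one. Lcn2 had the widest interval at 1 time point, at ZT 8.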

Other observations

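Orm3, the third orosomucoid and no member, differed from Orm1 and Orm2 in where it was found. It was at 4.46 to 16.8 CPM (median 10.4) in the 10 adipocyte-rich libraries and at 0.115 to 12.0 CPM (median 1.98) in the 32 liver libraries, with overlapping ranges, whereas Orm1 had medians of 193 and 444 CPM. In liver its highest value was in the AIN93G library at ZT 24. Under the HFD label, Orm3 was at a log2 difference of -0.804 ± 0.485 at ZT 16, not called, and of -1.61 ± 0.43 at ZT 20, called lower (edgeR adjusted p = 0.196 and 0.0116). With library size alone it was called lower at both, at -1.7 and -2.26 (edgeR adjusted p = 0.0147 and 0.00123). In these comparisons diet and tissue cannot be told apart.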
